A study of Mus musculus with 15 samples.

Results

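Ovulated cumulus cells were compared with unexpanded cumulus cells of adult mice, on 10 of the 15 arrays of the series. The arrays were chosen by their labels. The C2 group held the 5 arrays of cumulus cells around metaphase II oocytes, and the C1 group the 5 arrays of cumulus cells around adult prophase I oocytes. The other 5 arrays came from juvenile animals (NC1) and entered the statistical model only for its estimate of the spread between replicates. All adults were B6CBAF1/J mice of 8 weeks. At C1, unexpanded complexes were taken by puncture of large ovarian follicles in animals for which no hormone is stated, and their oocytes were stripped by pipetting. At C2, females received PMSG and then hCG, expanded complexes were flushed from the oviduct, and the cells were dispersed for a few seconds in hyaluronidase at 300 µg/ml. The effects of ovulation, hormone, site of collection and enzyme cannot be told apart in this design. Each array held RNA of a pool of cells from several mice, and the p-values measure the spread between such pools.

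Before ovulation, cumulus cells are coupled to the oocyte and to each other by gap junctions and divide under the influence of factors that the oocyte secretes. The ovulatory surge of luteinizing hormone makes the mural granulosa cells release EGF-like factors, which act on the EGF receptor of cumulus cells. The cumulus cells then lay down a matrix of hyaluronan, held together by the heavy chains of inter-alpha-trypsin inhibitor, by Tnfaip6 and by pentraxin 3, so that the complex expands and leaves the follicle.

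Levels are given as log2 signal relative to the median of the array, and a change is the mean of C2 minus the mean of C1 on that scale. A probe was called when its limma p-value, adjusted by Benjamini-Hochberg over all 20855 gene probes, was below 0.01. Probes present in at least 1 stage were kept. Those with signal on few C1 arrays could thus enter through C2 alone, and their calls are no separate evidence of a rise. A gene is represented by its brightest probe unless stated. The number of probes above background was 19167 to 24499 on C1 arrays, the highest in C1 replicate 4, and 18374 to 22121 on C2 arrays. C1 replicate 4 also gave signal above background at the lowest level, -6.55, against -4.95 to -3.69 on the other C1 arrays and -5.33 to -4.22 on C2 arrays.

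The 4 genes used to check the labels were all called in the direction of their label. Tnfaip6, the hyaladherin that moves heavy chains onto hyaluronan, had levels of -3.52, -3.77, -2.90, 2.71 and -3.25 in C1 replicates 1 to 5, and of 4.78, 4.17, 3.75, 4.15 and 4.57 at C2. C1 replicate 4 thus stood nearer to the C2 arrays than to the other C1 arrays, although the groups did not overlap. The change was 6.43 (SE 0.92, adjusted p = 2.04e-05), and 7.64 without that replicate. Spp1, which encodes the secreted phosphoprotein osteopontin, ranged from -0.47 to 1.15 at C1 and from 7.03 to 7.76 at C2, a change of 7.30 (SE 0.27, adjusted p = 1.88e-11). Amh, the anti-Müllerian hormone of granulosa cells, ranged from 1.14 to 1.69 at C1 and from -3.72 to -2.95 at C2 (change -4.72, SE 0.16, adjusted p = 1.11e-11). Cyp19a1, the aromatase that makes estradiol, had levels of 4.58, 2.56, 3.11, 3.02 and 2.60 at C1 and of -1.90, -1.98, -2.11, -0.75 and -0.12 at C2 (change -4.55, SE 0.44, adjusted p = 3.86e-07). C2 replicates 4 and 5 were the least reduced.

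The promoter windows of these genes are shown because their transcripts were used to check the labels. Each is a RefSeq window of the 250 bases before an annotated start (build GRCm38.p6), printed on the strand of the gene. A total of 4 motifs were searched on both strands, namely AP-1 (TGANTCA), CRE (TGACG), RUNX (TGTGGT) and NR5A (AAGGTCA). Of all 32851 windows in the table, 6.75% held the first, 17.8% the second, 14% the RUNX letters and 4.08% the NR5A letters. Among the 13464 windows of genes tested here, these shares were 4.69%, 25.1%, 10.6% and 3.01%. The Tnfaip6 window (chr2:52037863-52038112, plus strand) held 1 AP-1 match, in capitals. The upstream window of Spp1 (chr5:104434861-104435110, plus strand) held the RUNX letters in reverse orientation. The second of 3 windows of Cyp19a1 (chr9:54228915-54229164, minus strand) held the RUNX letters in forward orientation. The other Spp1 window and the other Cyp19a1 windows held no match to these letters, and Amh had no entry. These matches are a description of the sequence, not of binding.
Tnfaip6: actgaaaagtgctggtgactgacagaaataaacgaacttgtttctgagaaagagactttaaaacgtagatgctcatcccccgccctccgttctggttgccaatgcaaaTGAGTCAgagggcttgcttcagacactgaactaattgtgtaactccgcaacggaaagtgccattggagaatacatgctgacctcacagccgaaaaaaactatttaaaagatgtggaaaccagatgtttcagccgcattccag
Spp1: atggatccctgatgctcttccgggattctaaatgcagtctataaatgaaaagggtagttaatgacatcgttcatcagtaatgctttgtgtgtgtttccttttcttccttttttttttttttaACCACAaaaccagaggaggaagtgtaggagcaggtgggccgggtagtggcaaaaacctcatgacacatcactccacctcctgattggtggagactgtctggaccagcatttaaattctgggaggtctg
Cyp19a1: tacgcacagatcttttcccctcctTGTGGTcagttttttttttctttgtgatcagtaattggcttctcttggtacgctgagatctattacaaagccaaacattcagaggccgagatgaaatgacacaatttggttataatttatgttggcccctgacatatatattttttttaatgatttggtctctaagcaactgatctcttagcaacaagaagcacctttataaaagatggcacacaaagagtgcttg

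The first question was how much of the transcriptome differed between both kinds of adult cumulus cells. A total of 10130 probes (48.6% of those tested) were called, of which 5045 were higher and 5085 lower at C2. By gene, 7584 of 15032 genes (50.5%) were called, 3708 higher (24.7%) and 3876 lower (25.8%). The share of called probes that were higher was 49.8%, but it was 67.69% in the deposited table without further centring and 37.64% when arrays were scaled on spike-in controls, so the balance of directions depended on the scaling. The median change of all probes was -0.01 here, 0.30 in the deposited table and -0.12 with spike-in scaling. Large decreases outnumbered large increases, since 199 genes fell and 62 rose by at least 4 on the log2 scale, and 973 fell and 549 rose by at least 2. The C1 and C2 arrays did not overlap for 9356 probes (44.9% of those tested). Each of the 4 slides held arrays of both stages, and 97.0% of called probes (9823) had the same sign on every slide. The called probes were chosen from these same arrays, so that share follows largely from the choice and is no separate check of the slides. With slide as a block in the model, 4739 probes were higher and 4781 lower.

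**Figure D1:**
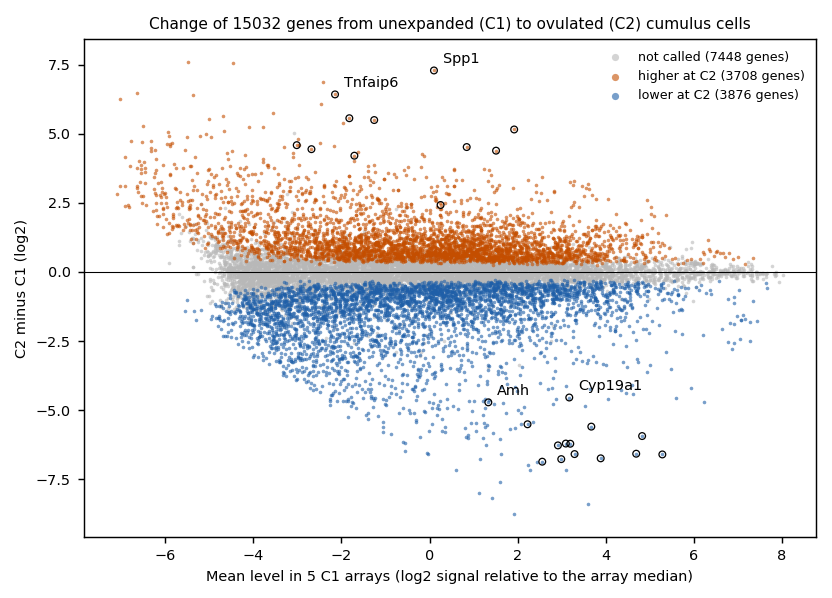
Change from C1 to C2 (log2, vertical axis) against the mean level in the 5 C1 arrays (log2 signal relative to the array median, horizontal axis) for 15032 genes, coloured by whether they were called, with circles around the markers and the highest and lowest genes named here. The 3708 genes called higher and 3876 called lower spread over the range of C1 levels, and more genes lie at least 4 below 0 (199) than at least 4 above it (62).

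Among called genes valid in all stages whose groups did not overlap, the highest changes after Spp1 and Tnfaip6 were those of Slc16a11 and Pdcd1. Slc16a11, of the monocarboxylate transporter family, ranged from -2.32 to -1.37 at C1 and from 3.20 to 4.13 at C2 (change 5.57, SE 0.20, adjusted p = 1.49e-11). Pdcd1, the inhibitory receptor PD-1 best known from T cells, ranged from -1.91 to -0.75 at C1 and from 3.91 to 4.42 at C2 (change 5.50, SE 0.20, adjusted p = 1.67e-11). In both genes the groups were separated by more than the spread of either group. Akr1c18, the 20-alpha-hydroxysteroid dehydrogenase that inactivates progesterone, had levels of 1.96, 1.44, 0.49, 1.30 and 4.42 at C1 and lay between 6.83 and 7.43 at C2, with a change of 5.16 (SE 0.52, adjusted p = 5.54e-07). C1 replicate 5 was the high C1 array for that gene. Lgals3, the beta-galactoside-binding lectin galectin-3, went from 0.84 ± 0.44 (SD, n = 5) to 5.37 ± 0.18 (SD, n = 5). Cited4, a CBP/p300-interacting transactivator, changed by 4.39 and Akr1b7, an aldose reductase family member, by 4.45.

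Lrmp, an endoplasmic reticulum protein first described in lymphoid cells, changed by 4.59 (SE 0.17, adjusted p = 2.21e-11). H2-Q10, a class I histocompatibility gene, changed by 4.55 by 1 probe and by 2.43 by its brightest probe. It belongs to a family of closely similar genes, so its own level is uncertain. The predicted gene Gm7969 changed by 4.84, and by 4.21 with its brightest probe.

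Leukocyte markers are given beside these genes, and their part in the values was not tested. Of the 7 measured, Fcgr3 was called higher (change 3.16), none was called lower and 6 were not called (median 0.61), and their summed level was 2.03 to 2.38 at C1 and 2.02 to 2.74 at C2. Ptprc, the common leukocyte antigen CD45, was above background on 1 C1 array and 4 C2 arrays, with a change of 0.61 (adjusted p = 0.1023). The T cell receptor subunit Cd3e differed by -0.19 and was not called. In the list of immune-type genes, 6 of 17 were higher, 4 lower and 7 not called (median 0.43, against -0.02 over all genes). Olr1, the receptor of oxidized lipoprotein, was above background on all C2 arrays and no C1 array and at least 16.2-fold higher at C2, or 7.84-fold with normexp background correction. Cd52 (3.01) and Tlr2 (2.95) rose, and Cd34 fell by 2.22.

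**Figure D2:**
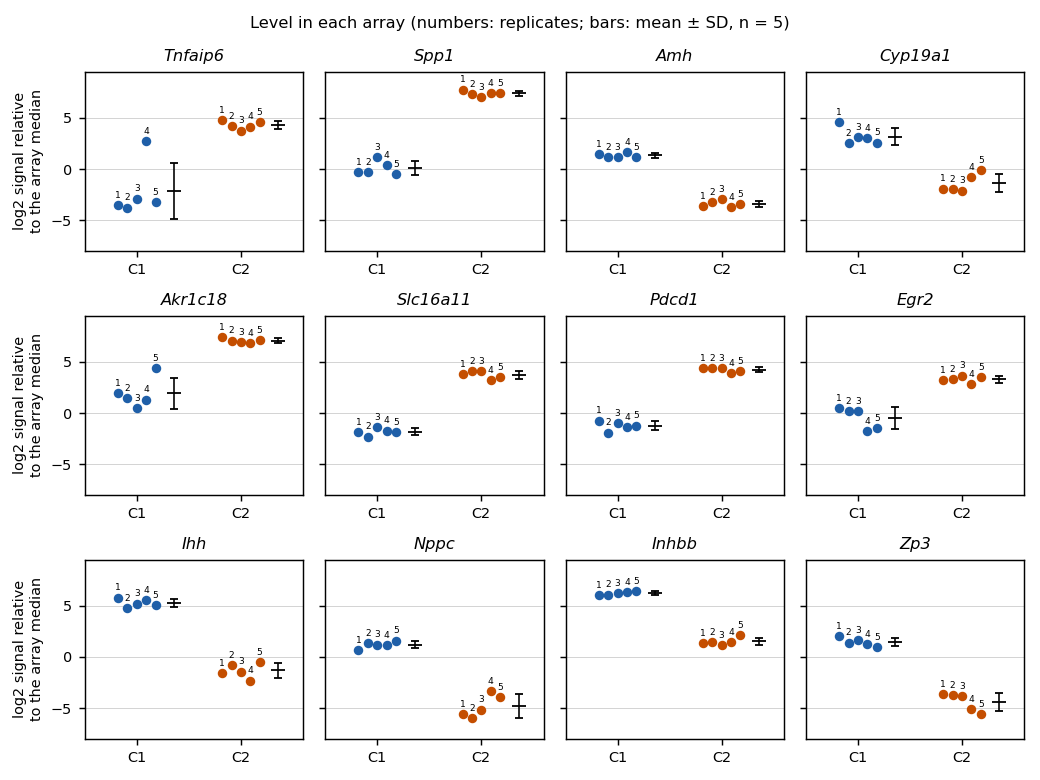
Level of 12 genes on each array (log2 signal relative to the array median), with the replicate number above each point and the mean ± SD of 5 arrays to its right. Slc16a11, Pdcd1, Inhbb and Ihh keep the groups far apart, Tnfaip6 has a C1 replicate 4 (2.71) close to the C2 arrays, and in Cyp19a1 and Nppc the C2 replicates 4 and 5 lie above the other C2 arrays.

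The lowest changes were larger in size than most of the highest. Ntng1, which encodes the membrane-anchored axon guidance protein netrin-G1, ranged from 2.08 to 3.62 at C1 and from -4.71 to -3.92 at C2 (change -6.87, SE 0.25, adjusted p = 1.49e-11), where 2 of 5 arrays were above background. Fndc5, the precursor of irisin, ranged from 2.32 to 3.50 at C1 and from -4.63 to -2.36 at C2 (change -6.28, SE 0.38, adjusted p = 1.9e-09). Adgrg1, an adhesion G protein-coupled receptor, was among the tightest, at 3.67 ± 0.12 (SD, n = 5) at C1 and -1.93 ± 0.18 (SD, n = 5) at C2. Tmem184a changed by -6.21 with an SD of 0.33 in each group.

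For 2 further genes the C2 arrays were split. Mfsd2a, the lysophospholipid transporter, had levels of -3.07, -4.13, -4.18, -1.97 and -1.76 at C2, all below the C1 range of 2.72 to 3.73. Serpina3a, a serine protease inhibitor gene, had levels of -1.54, -2.05, -1.99, -0.01 and 0.01 at C2 against 4.19 to 5.39 at C1. In both, C2 replicates 4 and 5 were the highest of their group. Serpina3a has close paralogs, and its own level is uncertain.

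Some genes had signal in 1 group only. A total of 66 probes (57 genes) were above background on all C2 arrays and no C1 array, 59 of them called. The reverse held for 289 probes (265 genes), 285 of them called. These probes were picked by signal in 1 group only. Their high share called, against 48.6% of all probes, follows from that choice. Probes were kept when present in at least 1 stage, so those seen only at C2 could enter through that stage alone. For both sets only a lower bound of the fold can be given, computed from the lowest signal above background on each array of the dim group. The largest bounds at C2 were those of Npy4r, a receptor of the neuropeptide Y family, at least 24.5-fold higher, Gm4632 (17.3), Olr1 (16.2), AA414992 (15), Mbp (14.8), the gene of myelin basic protein, Gm9629 (11.8), Dram1 (11.2), a lysosomal regulator of autophagy, and Trim29 (9.14). With normexp background correction these bounds shrank to between 4.36 and 10.1.

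In the other direction, Itih5 was at least 104.5-fold lower at C2, Mug2 83.4-fold, Ank1 73.1-fold, Ccl21a 59.9-fold, Slc9a3 47.8-fold, Mug1 41.8-fold, Limch1 38.2-fold and Asic4 33.8-fold. Ank1 encodes erythroid ankyrin, Slc9a3 a sodium/proton exchanger and Asic4 a member of the acid-sensing channel family. With normexp these bounds ranged from 13.3 to 46.6. Mug1 and Mug2 are near-identical murinoglobulin genes and Ccl21a has near-identical copies, so that signal could not be assigned to 1 copy. Itih5, a heavy chain of the inter-alpha-trypsin inhibitor family, had C1 levels of 1.88, 2.79, 1.18, 2.12 and 1.66 and was not above background on any C2 array (adjusted p = 1.69e-12).

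The matrix of expansion was examined next. The counts of this and the following lists stand beside 24.7% of all genes higher, 25.8% lower and 50.5% called, with a median change of -0.02. Of 17 measured genes of the hyaluronan matrix, 7 were higher, 7 lower and 3 not called, with a median of 0.62. Has2, the synthase that makes the hyaluronan of expansion, had levels of -5.02, -4.11, -2.41, -2.59 and -4.27 at C1 and of -1.79, -1.19, -1.24, -0.77 and -0.50 at C2. All C2 arrays were above all C1 arrays, of which 2 were above background, and the change was 2.58 (SE 0.43, adjusted p = 9.92e-05). Ptx3 had levels of -4.74, -5.60, -4.29, 0.81 and -5.13 at C1 and of 0.54, 0.67, 0.84, 2.71 and 2.62 at C2. C1 replicate 4 was the only C1 array above background, and it overlapped the C2 arrays. The change was 5.27 (SE 0.93, adjusted p = 0.000166), and 6.42 without that array.

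Other members that rose were Ugdh (1.69), which makes the sugar precursor of hyaluronan, its receptor Cd44 (2.24) and Adamts4 (3.03), which cleaves proteoglycans of the versican family. Those that fell included the heavy chains Itih5 and Itih2, the latter at least 19.6-fold lower, or 8.27-fold with normexp, and Adamts5 (change -3.03). Vcan, the proteoglycan versican, had a change of 0.86 and Adamts1 of 0.62, and neither was called. Without C1 replicate 4, Vcan was called with a change of 1.17, and without C1 replicate 3, Adamts1 with a change of 0.78. With all arrays kept, both were called in the deposited table without further centring (Vcan 1.16, Adamts1 0.92). Vcan was also called with a mean-variance trend in limma (0.86).

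Upstream of the matrix stand the EGF-like ligands. Of 10 measured genes of that pathway, 3 were higher, 3 lower and 4 not called (median 1.22). The ligands betacellulin and heparin-binding EGF moved apart. Btc had levels of -5.83, -4.61, -4.82, -0.45 and -5.04 at C1 and from -1.88 to -0.82 at C2, so that C1 replicate 4 lay above every C2 array. Its change was 2.63 (SE 0.72, adjusted p = 0.005) and 3.56 without that array. Its probe was valid in 1 stage only, and C1 replicate 4 was its only C1 array above background. Btc lost its call without C1 replicate 1 (2.21), 2 (2.52), 3 (2.46) or 5 (2.41) and without C2 replicate 4 (2.46) or 5 (2.61), and also with slide as a block, without moderation, with no filter on probes and with only the C1 and C2 arrays in the model. Hbegf ranged from -0.57 to 1.37 at C1 and from -4.32 to -3.94 at C2 (change -4.01, SE 0.29, adjusted p = 1.52e-08). The receptor genes Egfr (-1.07) and Erbb2 (-1.93) were lower, and Errfi1, a feedback inhibitor of the receptor, was higher (2.02).

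The ligands Areg, Ereg and Epgn were not called, and each had 1 high C1 array. Areg was at -7.15, -6.32, -5.66, -2.36 and -6.93 at C1 and between -4.54 and -2.82 at C2 (change 2.11, adjusted p = 0.0163). Ereg was at -4.36, -5.91, -2.57, 1.19 and -4.57 at C1 and between -0.64 and 0.02 at C2 (change 2.83, adjusted p = 0.0136). Epgn was at -0.37 in C1 replicate 4, between -7.06 and -5.72 on the other C1 arrays and between -3.56 and -1.83 at C2 (change 2.48, adjusted p = 0.0306). In all 3 genes C1 replicate 4 was above the highest C2 array. Without it, the changes were 2.94, 3.94 and 3.68 and all passed the threshold, but this follows from the choice of the array. It was left out because high levels of early ovulatory genes had already been seen in it. With all arrays kept, Areg was called with quantile normalization (2.56) and in the deposited table without further centring (2.42). Ereg was then called with a mean-variance trend in limma (2.83), with spike-in scaling (2.72) and in that table (3.14).

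Downstream of these receptors act the feedback genes of ERK signalling. Of 13 measured, 6 rose, 2 fell and 5 were not called (median 0.89). Dusp4 and Dusp6, phosphatases that switch off ERK, changed by 3.85 (SE 0.31, adjusted p = 4.75e-08) and 3.12 (SE 0.21, adjusted p = 6.26e-09). Dusp4 was above background on 1 C1 array and on all C2 arrays, whereas Dusp6 was measured on all 10. The inhibitors Spred2 (2.43) and Spred1 (1.36) also rose. Among C1 arrays, Spred2 was above background on replicate 4 only. Spry1, another inhibitor, fell and was at least 3.23-fold lower at C2 (2.25-fold with normexp), where it was below background.

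**Figure D3:**
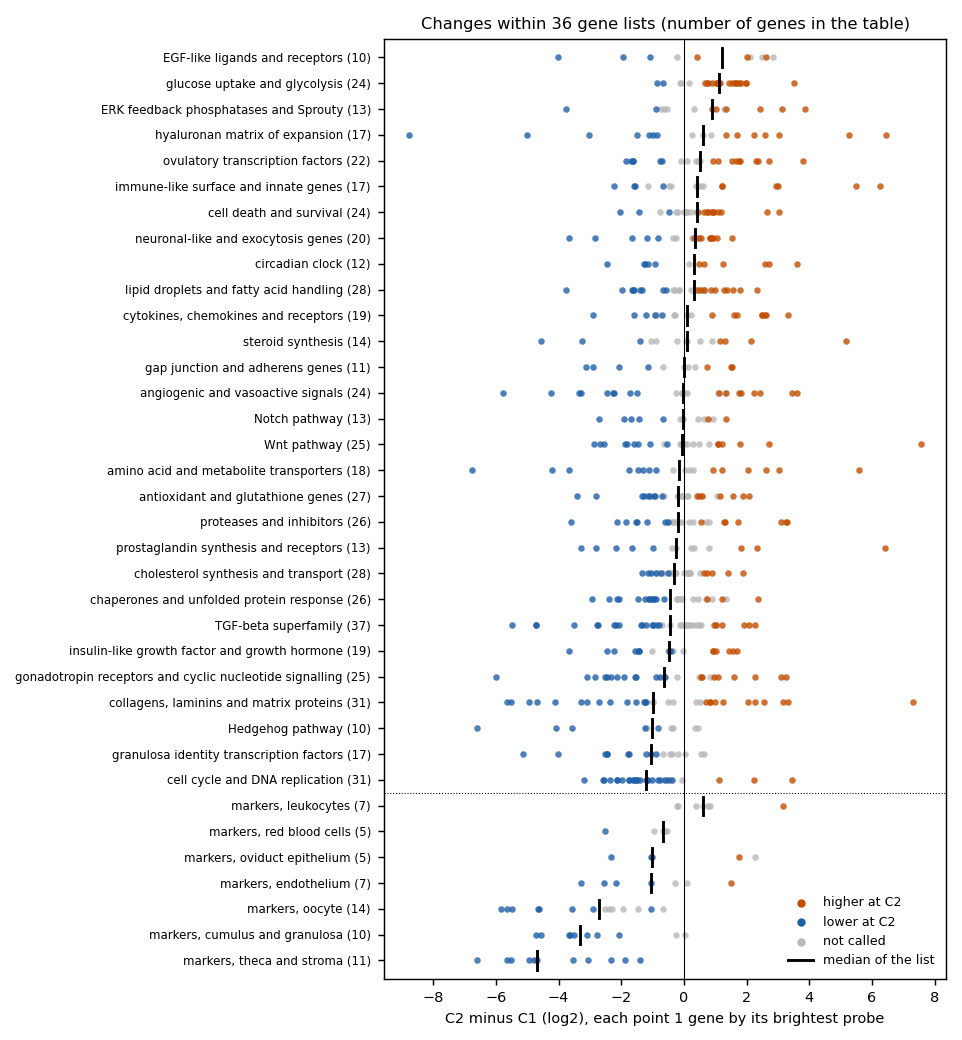
Change from C1 to C2 (log2) of each measured gene in 36 lists, with the median of each list as a black bar and colours for called genes; the number of measured genes stands in brackets and marker lists lie under the dotted line. Theca and stroma markers have the lowest median (-4.69), glycolysis genes have a median of 1.11, and most lists hold genes called in both directions.

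Immediate and ovulatory transcription factors were mixed. Of 22 measured, 10 rose, 6 fell and 6 were not called (median 0.50). Egr2, a zinc finger factor induced by ERK, had levels of 0.49, 0.22, 0.18, -1.80 and -1.49 at C1 and of 3.24, 3.30, 3.66, 2.81 and 3.54 at C2 (change 3.79, SE 0.43, adjusted p = 2.02e-06). C1 replicates 4 and 5 were its low C1 arrays. Fosl1 (2.73), Runx1 (2.29), Rora (2.36), Nr4a2 (1.80) and Cebpb (1.66) rose, while Fos (-1.61) and Atf3 (-1.84) fell. Among C1 arrays, Fosl1 was above background on replicate 4 only.

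Transcription factors of granulosa cell identity formed a separate list. None of 17 measured was called higher, 10 were lower and 7 were not called (median -1.05). Nr0b1, the nuclear receptor DAX-1, ranged from -1.43 to 0.45 at C1 and was not above background on any C2 array, at least 17.1-fold lower, or 7.11-fold with normexp (adjusted p = 5.72e-10). Wt1 ranged from 2.22 to 3.08 at C1 and from -2.12 to -0.66 at C2 (change -4.01, SE 0.27, adjusted p = 6.04e-09). Foxo1 (-1.78) and Nr5a2 (-1.75), which encodes LRH-1, also fell. Foxl2, the factor that maintains granulosa fate, had a mean change of 0.03 (SE 0.21, adjusted p = 0.9081), with levels of 3.78 to 4.52 at C1 and 3.80 to 4.27 at C2.

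Among genes of steroid synthesis, 4 of 14 were higher, 3 lower and 7 not called (median 0.08), and the share called, 50%, was near the 50.5% of all genes. The genes for estrogen production fell, since Hsd17b1, which reduces estrone to estradiol, went from 4.10 to 4.63 at C1 to between 0.91 and 1.63 at C2 (change -3.24, SE 0.16, adjusted p = 2.25e-10), and Cyp19a1 fell with it. The electron donors Fdx1 (1.16) and Fdxr (1.32) and the 11-beta-dehydrogenase Hsd11b1 (2.15) rose together with Akr1c18. Star, which brings cholesterol into mitochondria, was at 2.27, 0.74, -0.99, 1.40 and 1.18 at C1 and between -0.87 and 0.41 at C2 and was not called (change -1.04, adjusted p = 0.088). Without C1 replicate 3, its low C1 array, Star was called with a change of -1.52. Cyp11a1, the side-chain cleavage enzyme, was not called (change 0.88, adjusted p = 0.0128), but was called without C1 replicate 5 (1.05) or C2 replicate 4 (1.00). It was also called with normexp (0.92), with a mean-variance trend (0.88) and in the deposited table without further centring (1.19). With C2 replicates 1 to 3 alone, it was called with a change of 1.17.

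Prostaglandin genes also differed by step. Of 13 measured, 3 rose, 5 fell and 5 were not called (median -0.26). Ptgs2, the inducible cyclooxygenase, was at -6.70, -6.03, -5.60, -1.88 and -6.70 at C1 and between 0.66 and 1.56 at C2 (change 6.42, SE 0.67, adjusted p = 8.17e-07). C1 replicate 4 was the only C1 array above background for Ptgs2, and the change was 7.30 without it. The Ptgs2 probe was valid in 1 stage only and could enter through C2 alone, so its p-value is no separate evidence. The receptor Ptger2 (2.33) and the transporter Slco2a1 (1.82) rose. Hpgd, which degrades prostaglandins, fell by 2.80 and the prostacyclin synthase Ptgis by 3.27. The receptor Ptger3 was at least 2.04-fold lower, or 1.70-fold with normexp.

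Receptors of gonadotropins and genes of cyclic nucleotide signalling had 8 higher, 13 lower and 4 not called of 25 (median -0.64). Nppc, the precursor of the C-type natriuretic peptide that holds oocytes in meiotic arrest, was at 0.69, 1.36, 1.21, 1.18 and 1.59 at C1 and at -5.58, -6.00, -5.14, -3.31 and -3.91 at C2 (change -5.99, SE 0.43, adjusted p = 1.2e-08). It was above background on 2 of 5 C2 arrays. Its receptor Npr2 ranged from 2.44 to 3.14 at C1 and from 1.09 to 1.34 at C2 (change -1.54, SE 0.13, adjusted p = 5.72e-08). Npr1, the receptor of atrial natriuretic peptide, rose by 3.25 from levels that were above background on 1 C1 array. Lhcgr, the receptor of luteinizing hormone, fell by 2.83 (adjusted p = 9.37e-06). Pde4a (2.28) rose and Prkar2b (-2.53) and Gucy1b1 (-2.45) fell.

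Signals exchanged with the oocyte and between follicle cells were examined by family. In the TGF-beta superfamily, 16 of 37 genes fell, 6 rose and 15 were not called (median -0.44). Bmp2 was at 0.39, 1.96, 1.05, 1.00 and 1.74 at C1 and at -4.0, -4.55, -3.87, -4.56 and -4.27 at C2 (change -5.48, SE 0.24, adjusted p = 8.44e-11). Inhbb, the beta-B subunit of activin and inhibin, ranged from 6.07 to 6.47 at C1 and from 1.20 to 2.11 at C2 (change -4.72, SE 0.19, adjusted p = 3.3e-11). The groups of both genes lay far apart. Inha (-2.78) fell, while Tgfb1 (2.27) and Bmp6 (2.06) rose. The oocyte factors Gdf9 and Bmp15 are not in this list and were counted with the oocyte markers.

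In the Hedgehog pathway 5 of 10 genes were lower, none higher and 5 not called (median -1.01), so that the share called, 50%, was near that of all genes (50.5%), while the share lower was above the 25.8% of all genes and rested on 5 genes. The ligand Dhh ranged from 4.39 to 4.79 at C1 and from 0.21 to 0.80 at C2 (change -4.09, SE 0.17, adjusted p = 5.28e-11), and Ihh fell as well. The membrane antagonist Hhip was at least 4.37-fold lower, or 2.73-fold with normexp, and the signal transducer Smo changed by -0.84. The targets Ptch1 (-0.43) and Gli1 (-1.19) were not called. In the Wnt pathway, 6 of 25 rose, 9 fell and 10 were not called. Its secreted modulator Sfrp2 had C1 levels of -5.67, -5.38, -4.30, -1.90 and -5.03 and lay between 2.88 and 3.41 at C2 (change 7.55, SE 0.51, adjusted p = 7.45e-09), with C1 replicate 4 the only C1 array above background. Wnt4 (1.79) and Fzd1 (2.70) rose, and Wnt6 (-2.87), Wnt5b (-2.68) and Fzd4 (-2.56) fell. Of 13 Notch genes, 2 rose, 5 fell and 6 were not called, among them Hes1 (1.35), Mfng (-2.71) and Jag2 (-1.91).

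Genes of the cell cycle and of cell death were then counted. Of 31 cell cycle genes measured, 24 fell, 3 rose and 4 were not called (median -1.21). Ccnd2, the cyclin of granulosa cell growth, ranged from 3.36 to 3.71 at C1 and from 0.13 to 0.95 at C2 (change -3.19, SE 0.16, adjusted p = 3.85e-10). The replication helicase genes Mcm2 (-2.59) and Mcm3 (-2.56), Ccne1 (-2.37) and Mki67 (-2.15) fell too. Among the 3 that rose were the inhibitors Cdkn1a, from -1.40 ± 0.34 to 2.05 ± 0.12 (SD, n = 5 each), and Cdkn1b (2.24). In the cell death list, 11 of 24 genes rose, 3 fell and 10 were not called (median 0.41), a share called of 58.3% against 50.5% of all genes. The pro-apoptotic Bmf (3.03) and Bbc3 (2.64) were higher, as were the protective Mcl1 (1.1) and Bcl2l2 (1.18), and Bcl2 fell by 2.04.

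Metabolic genes were divided into glycolysis, transport, lipid handling and cholesterol. Of 24 glycolysis genes, 18 rose, 2 fell and 4 were not called (median 1.11). Pfkp and Hk2 each rose by 1.99 and the lactate exporter Slc16a3 by 1.82, while the glucose transporters Slc2a4 (-0.85) and Slc2a8 (-0.68) fell. Eno2 ranged from -4.85 to -3.54 at C1, with 2 of 5 arrays above background, and from -0.97 to -0.15 at C2. Among amino acid and other transporters, 6 of 18 rose, 8 fell and 4 were not called. Slc38a5 fell from between 5.87 and 6.0 at C1 to between 1.05 and 2.32 at C2 (change -4.20, SE 0.21, adjusted p = 2.27e-10), and Slc38a3 fell by 3.67, while Slc7a8 (3.03) and Slc7a1 (2.05) rose. In lipid handling, 10 of 28 rose, 9 fell and 9 were not called. The fatty acid binding protein gene Fabp3 fell by 3.77 and Acsl4 (2.34) and Scd1 (1.78) rose. Of 28 cholesterol genes, 5 rose, 6 fell and 17 were not called, with Fdps at 1.89, Abca1 at 1.40 and Insig1 at -1.35.

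The extracellular matrix outside the hyaluronan coat was divided. Of 31 matrix protein genes, 14 fell, 11 rose and 6 were not called (median -0.98). The fibrillar collagens Col3a1, Col1a2 and Col1a1 fell, with Col3a1 between 1.08 and 1.55 at C1 and between -4.95 and -3.68 at C2 (change -5.63, SE 0.32, adjusted p = 1.23e-09), Col1a2 (-5.51) and Col1a1 (-4.94). The small proteoglycan Dcn (-4.69) and the laminin Lama2 (-4.10) fell likewise. The basement membrane collagens Col18a1 (3.33), Col4a2 (2.56) and Col4a1 (2.25) rose, as did fibronectin, Fn1, from 1.57 ± 0.42 to 4.73 ± 0.45 (SD, n = 5 each).

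Theca and stroma markers moved with the fibrillar collagens, which are part of that marker list. All 11 were lower at C2 (median -4.69), and their summed level was 3.94 to 4.52 at C1 and 0.00 to 0.43 at C2. Each was above background on all C1 arrays, while Lum and Pdgfra were above background on no C2 array. Their part in the result was not tested, and in such bulk samples fewer cells of a type and less RNA per cell cannot be told apart. Among proteases and inhibitors, 7 of 26 rose, 8 fell and 11 were not called. Plaur, the urokinase receptor, rose by 3.28 and the inhibitor Timp1 by 3.26, while Timp2 (-2.14) and Adamts2 (-3.60) fell. Mmp19 was above background on 4 C2 arrays and no C1 array (adjusted p = 4.62e-07).

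**Figure D4:**
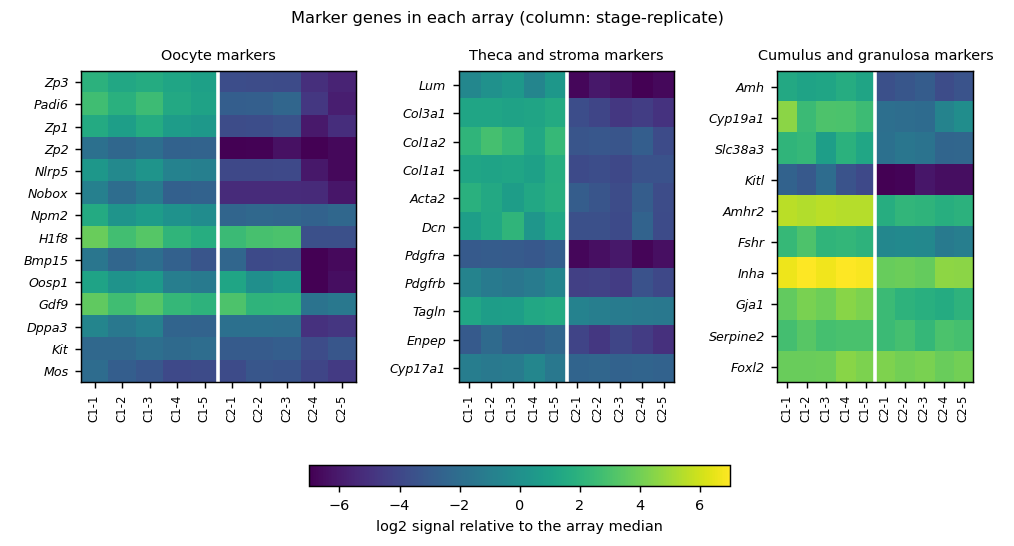
Level of oocyte, theca and stroma, and cumulus and granulosa markers (rows) on each array (columns, stage-replicate), on a colour scale of log2 signal relative to the array median. Theca and stroma markers are low on every C2 array, while several oocyte markers such as H1f8, Gdf9 and Oosp1 are as high in C2 replicates 1 to 3 as at C1 and low in C2 replicates 4 and 5.

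Oocyte markers were present in both groups although oocytes had been removed. Of 14 measured, 8 were lower at C2, 6 were not called and none was higher (median -2.70). Their summed level was 3.97 to 5.59 at C1 and -0.20 to 4.15 at C2, and Zp2 and Nobox were above background on no C2 array. The C2 arrays were split for some of them. Gdf9 was at 3.06, 2.13, 2.17, -1.68 and -1.41 at C2 against 2.04 to 3.58 at C1, and H1f8, the oocyte linker histone, at 2.53, 2.92, 3.04, -3.60 and -3.57 against 1.75 to 3.82. C2 replicates 1 to 3 thus lay within the range of C1 for both genes, and C2 replicates 4 and 5 lay far below it. Zp3, a zona pellucida protein gene, was low on all C2 arrays, from -5.59 to -3.67, against 0.97 to 2.01 at C1 (change -5.83, SE 0.42, adjusted p = 1.53e-08). With C2 replicates 1 to 3 alone, 7 of the 14 were lower and the median was -1.91. Cyp19a1, Nppc, Mfsd2a and Serpina3a, described above, differed between these C2 arrays in the opposite direction, being higher in C2 replicates 4 and 5. The part of the oocyte RNA in these values was not tested.

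Markers of the cumulus and granulosa cells themselves were lower. Of 10, 8 fell and 2 were not called (median -3.30), the summed level was 7.67 to 7.94 at C1 and 5.50 to 5.86 at C2, and Kitl, the KIT ligand, was the 1 marker above background on no C2 array (at least 3.41-fold lower, or 2.13-fold with normexp). Of the 5 oviduct epithelium markers, Krt18 rose (1.77), 3 fell and Ovgp1, the oviductal glycoprotein, was not called. Ovgp1 was at -0.33, -0.67, 0.98, -0.11 and -3.65 at C1 and at 2.03, 0.11, -0.32, 3.07 and 2.73 at C2 (change 2.28, adjusted p = 0.0405), with C2 replicates 1, 4 and 5 above replicates 2 and 3. The summed level of this list was 2.02 to 2.84 at C1 and 3.99 to 4.36 at C2. Of 5 red blood cell markers 1 fell and 4 were not called.

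Vascular and junction genes followed. Of 24 angiogenic and vasoactive genes, 8 rose, 9 fell and 7 were not called. Angpt2 was at 0.13, 0.06, -0.60, 0.44 and -0.07 at C1 and between -6.48 and -4.73 at C2 (change -5.77, SE 0.28, adjusted p = 2.25e-10), where 1 array was above background. The VEGF receptor Flt1 was below background on all C2 arrays and at least 9.44-fold lower, or 4.67-fold with normexp (adjusted p = 1.68e-08), while Vegfa rose by 1.35. The receptor activity-modifying proteins Ramp1 (3.61) and Ramp2 (3.46) rose together. Of 7 endothelial markers, 4 fell, Cdh5 rose (1.5) and 2 were not called, and their summed level was 0.50 to 1.11 at C1 and 0.07 to 0.87 at C2. In gap and adherens junctions, 4 of 11 fell, among them Gja4 (-2.89) and Gja1 (-2.09), 3 rose and 4 were not called.

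Genes of cytokine signalling had 8 of 19 higher, 5 lower and 6 not called (median 0.11). Il6 was above background on 1 C1 array and rose to between -2.33 and -1.67 (change 3.32, SE 0.39, adjusted p = 3e-06). The receptors Il4ra (2.60), Il1r1 (2.49) and Osmr (2.49) rose, and Cxcl12 fell by 2.89. In the insulin-like growth factor list, 9 of 19 fell and 6 rose, with Igfbp5 at -3.68, Igf1 at -1.46 and Stat5a at 1.69. Of 12 clock genes, 6 rose and 5 fell. Bhlhe40 (3.59), Arntl (2.72) and Nfil3 (2.60) were higher, and Dbp (-2.45), a target of the clock, was lower.

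In the 3 remaining lists, 13 of 26 chaperone genes fell, 3 rose and 10 were not called, with Sdf2l1 at -2.92, Creld2 at -2.14 and Hspa5, the main chaperone of the endoplasmic reticulum, at -1.11. Of 27 antioxidant genes 7 rose and 9 fell, with Srxn1 at 2.09, Gss at 1.89 and Sod3 at -3.41. Of 20 neuronal and exocytosis genes 9 rose and 5 fell, with Stx3 at 1.53 while Syt7 was below background on all C2 arrays and at least 5.67-fold lower, or 2.89-fold with normexp (adjusted p = 2.32e-09).

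The comparison was then repeated without C1 replicate 4, the array known from earlier results of these data to carry high levels of early ovulatory genes. Changes of such genes without it are therefore a description and no separate evidence. A total of 9832 probes were called, of which 9469 had been called with the same sign on all arrays. Calls of 661 probes were lost and 363 were gained. Among the 711 probes that rose by at least 2 on the log2 scale, C1 replicate 4 lay at or past the midpoint between the mean of the other C1 arrays and the C2 mean for 64 (9.0%), and C1 replicate 3 for 60 (8.44%). The counts were 0, 4 and 5 for replicates 1, 2 and 5. Among the 1193 probes that fell as much, the counts were 10 for replicate 4 and 16 for replicate 3.

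The genes whose change moved most were led by Nts, the neuropeptide neurotensin. Nts was at -5.47, -4.17, -2.50, 5.04 and -5.02 at C1 and between 3.86 and 5.07 at C2. C1 replicate 4 was at the level of the C2 arrays, and the change was 6.90 (SE 1.46, adjusted p = 0.00076) with it and 8.76 without. The keratin Krt23 changed from 7.60 to 8.66, Btc, Ptx3, Ptgs2 and Tnfaip6 as given above, the cystine transporter Slc7a11 from 2.60 to 3.42 (not called without C1 replicate 2, at 2.38, or 5, at 2.22, with slide as a block or with only the C1 and C2 arrays in the model) and the cGMP-dependent kinase Prkg2 from 3.09 to 3.82. The change became smaller in size for Atp6v0d2 (4.15 to 3.36), where C1 replicate 4 was at -8.50 and the other C1 arrays were between -5.48 and -3.98. Nts, Krt23, Btc, Ptgs2, Slc7a11, Prkg2 and Atp6v0d2 were valid in 1 stage only and could enter through C2 alone. Sult1e1, an estrogen sulfotransferase chosen after its values were seen, was at 5.18 in C1 replicate 4, above the C2 mean of 1.94, and between -5.95 and -3.91 on the other C1 arrays.

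**Figure D5:**
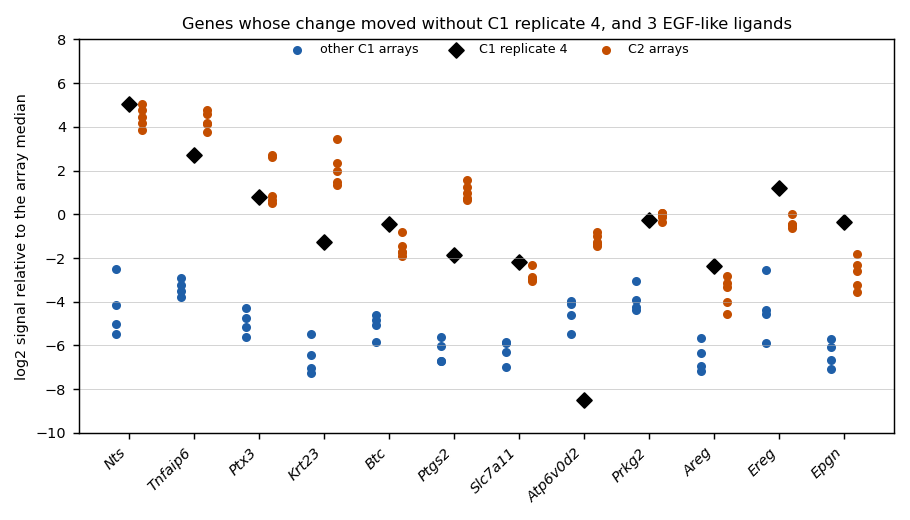
Level (log2 signal relative to the array median) of the called genes named here whose change moved most without C1 replicate 4, and of Areg, Ereg and Epgn, on the other C1 arrays, on C1 replicate 4 (diamond) and on C2 arrays. C1 replicate 4 lies with or above the C2 arrays for Nts (5.04) and Btc (-0.45) and between both groups for Tnfaip6 (2.71), while Atp6v0d2 lies at -8.50.

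Without that array, 233 probes (208 genes) in place of 66 were above background on all C2 arrays and no C1 array. Of these, 213 were called, against 9832 of all 20855 probes in the same fit. This high share follows from picking probes by signal in 1 group only. In C1 replicate 4 itself, 167 of them were above background and 10 were at or above the lowest C2 array. Bounds set in this way were at least 175-fold for Sfrp2, 88.5-fold for Krt23 and 78.6-fold for Sult1e1, whose level in C1 replicate 4 was above the C2 mean. They were 54.8-fold for Ptx3, 42.0-fold for Ptgs2 and 29.5-fold for Lox, the collagen cross-linking oxidase. Bounds with normexp are not given for these genes. The part of the lower detection level of that array in these counts was not tested.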

How the data were processed

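Cumulus cell RNA was labelled with Cy3 and hybridized to Agilent 1-colour arrays of 44397 spots. The authors deposited scanner output (Agilent Feature Extraction 10.7.1.1 per the file headers, 10.5.1.1 per the submitters' processing notes), which gives intensity on a linear scale after background subtraction. A second file deposited by the authors holds log2 values of 20855 gene probes, kept when present in at least 80% of the arrays of at least 1 stage. Each of its columns was the log2 intensity plus a constant (SD of the difference at most 0.00742). This table was used here, minus the median of each array over the 17342 probes that passed in all 3 stages. No spot was saturated. By accession, 16289 probes were named through RefSeq (GRCm38.p6), 2770 were named by the table alone and 1796 had no name, for 15032 symbols. Arrays have no read depth, and their number limits the precision.

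The 15 arrays were fitted in 1 model with a mean per stage (limma 3.58.1, R 4.3.3), with a two-sided moderated contrast of C2 and C1 and Benjamini-Hochberg adjustment at 0.01. On simulated data for this contrast with 50 changed probes per size among 20855, 6% were recovered at a log2 change of 0.5, 66% at 1, 94% at 2 and 100% at 4, with 1 false call. The simulated noise was normal and independent between probes and arrays. Far fewer probes changed in it than the 48.6% called in the data, so its rates do not carry over to these calls. Above background means the scanner flag for it. For a gene below background on all arrays of a group, the bound sets the bright mean against the mean, over the dim arrays, of the higher of the lowest level above background and the level of the probe. Summed levels are log2 of the summed linear levels of a list. Genes named are the 4 markers, the 12 highest and 12 lowest changes, up to 6 called members of each list, the 8 largest bounds in each direction, the 10 called genes that moved most without C1 replicate 4, and members given by value. The members and the lists were chosen with earlier results of these data known. Alternatives covered scaling, background (normexp, offset 50, on the median spot signal), filters, models, slide, replicate block and each array left out.

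Replicates 1 to 5 of both stages shared no stated source, and their deviations from the group means had correlations of -0.169 to 0.213, so the numbers were not taken as pairs. NC1 results and some items withheld from the text are not reported here.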

Additional observations from a re-analysis of the deposited data

Results flagged for a closer look

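In 434 groups of 5 arrays (the genes of the naming rules that are reported, in each stage), 31 (7.14%) had 1 array whose gap to the nearest of the others exceeded 0.71 of the range of the group, where about 1 in 20 is expected by chance. C1 replicate 4 was that array in 11 of them, C1 replicate 2 in 5, C1 replicate 3 and C2 replicate 4 in 3 each, C1 replicates 1 and 5 and C2 replicates 1 and 3 in 2 each, C2 replicate 5 in 1 and C2 replicate 2 in 0. The genes tested include those chosen because their change moved most without C1 replicate 4, so the count for that array follows in part from the choice of genes. In C1 replicate 4, the high values were those of Nts (5.04), Slc7a8 (3.86, others 1.09 to 1.83), Tnfaip6 (2.71), Ptx3 (0.81), Stx3 (0.10, others -1.28 to -1.07), Fzd1 (-0.24, others -1.95 to -1.55), Epgn (-0.37), Btc (-0.45), Ptgs2 (-1.88) and Slc7a11 (-2.17, others -6.97 to -5.83). The low value was that of Emcn, an endothelial sialomucin (-4.22, others -3.48 to -3.31).

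In C1 replicate 2, Ntng1 (3.62), Hbegf (1.37, others -0.57 to -0.22) and Adamts5 (0.05, others -2.33 to -1.94) stood high, and Wnt6 (-0.47, others 0.38 to 0.66) and Epcam (-3.03, others -2.31 to -2.03) low. In C1 replicate 3, Mcm2 (1.19) and Gm7969 (-0.55, others -2.79 to -2.16) were high and Scd1 was low (-2.11, others -0.80 to -0.49). C1 replicate 1 had a high Cyp19a1 (4.58, others 2.56 to 3.11) and a low Fosl1 (-7.16), and C1 replicate 5 a high Cited4 (2.23) and a low Dkk3 (0.40).

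Among C2 arrays, replicate 1 had high Hspa1a (-1.29) and Mfng (-4.05, others -5.25 to -4.97). Replicate 4 had high Dcn (-2.57, others -3.84 to -3.58) and Slc7a11 (-2.33) and low Spred1 (0.55). Replicate 3 had a low Esam (-4.69) and a high Rab3b (-3.81), and replicate 5 a low Nobox (-6.18).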

How the results depend on the processing

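The number of called probes moved by over 1.5 times with spike-in scaling (5702 called, 2146 of them higher) and with a change of at least 2-fold required (5522 called, 2493 higher and 3029 lower). In the deposited table as it is, 2898 probes were lower. The share of calls that were higher was 49.8% as reported, 67.69% in the deposited table as it is, 37.64% with spike-in scaling and 41.75% with 75th percentile scaling, and the median change of all probes was -0.01, 0.30, -0.12 and -0.13. Leaving out 1 array at a time gave 9425 to 9832 called probes, 4691 to 4991 higher and 4733 to 4997 lower, 66 to 233 probes above background only at C2 and 289 to 406 only at C1. The 233 came from leaving out C1 replicate 4. With the replicate block, 8295 probes were called, 4092 higher and 4203 lower. With C2 replicates 1 to 3 only, an alternative chosen after seeing the data, 8823 were called, 4384 higher and 4439 lower.

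The naming rules gave 221 genes, including some not reported here. Of these 212 were called, and 190 kept the call under every alternative in which they were tested (26 at most). Of 5450 values of called genes, 0 reversed and 123 were no longer called, most of them for Hspa1a, Tgfa, Nr1d1, Plin4, Btc, Cidea and Sqle. The change of Tnfaip6 ranged from 5.68 to 7.64, Spp1 from 7.15 to 7.61, Amh from -4.84 to -3.90 and Cyp19a1 from -5.17 to -4.19. Without C1 replicate 4, Areg (2.94), Ereg (3.94), Epgn (3.68) and Vcan (1.17) passed the threshold, which follows from the choice of that array, and without C1 replicate 3, Star (-1.52) and Adamts1 (0.78). Cyp11a1 passed it without C1 replicate 5 (1.05) or C2 replicate 4 (1.00), and under the other settings given above. With all arrays kept, Areg, Ereg, Vcan and Adamts1 also passed it under the scalings or models given above. Ovgp1 passed it in the deposited table as it is (2.59). The causes were not tested. Changes of genes near background are uncertain in size, since they depend on the background correction.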
